A study of Homo sapiens with 12 samples.

Results

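The genes described here are 52 genes of DNA replication and S phase in HL-60, an established human line that grew out of an acute myeloid leukemia. They were picked by symbol for their role in copying DNA or in supplying that process, a rule that uses no measured value. The list was, however, chosen with earlier results of these data known. All 52 were among the 42157 genes counted and among the 13696 genes with enough reads to be tested. By role, 12 of them license origins, 8 activate the replicative helicase, 6 form the sliding clamp and its loader, 14 encode polymerases, primase, the single-strand binding protein RPA and the enzymes that finish Okazaki fragments, 5 supply nucleotides, 3 drive entry into S phase and 4 handle chromatin and histone supply at the fork.

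The study asked how daunorubicin (DNR) changes transcription within 3 h and whether SUMOylation takes part in it. DNR, an anthracycline given to patients with this leukemia, inserts itself between DNA bases and poisons topoisomerase II. ML-792 blocks the first enzyme of SUMOylation, the attachment of the small protein SUMO to other proteins, many of them on chromatin. Polyadenylated RNA was sequenced from 12 libraries, 3 replicates in each of 4 groups, each exposed for 3 h: dimethyl sulfoxide (DMSO, the vehicle), 1 µM DNR, 0.5 µM ML-792, and 0.5 µM ML-792 together with 1 µM DNR (ML-792+DNR). Per the study's methods the replicates came from independent experiments. All samples are of 1 cell line at 1 time point, and cell cycle stages were not separated.

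Before S phase, the origin recognition complex with CDC6 and CDT1 loads the MCM helicase onto DNA, a step called licensing, which geminin limits by binding CDT1. At the onset of S phase, cyclin E with its kinase partner and the kinase CDC7 with its activator DBF4 turn the loaded helicase on by recruiting CDC45 and the GINS complex. Primase and the polymerases then copy DNA behind the helicase while the clamp PCNA tethers them, ribonucleotide reductase and thymidylate enzymes supply the building blocks, and many of the genes involved are targets of E2F transcription factors.

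The libraries held 28.6 to 46.5 M (mega) reads in genes. Mitochondrially encoded transcripts took 4.01% to 6.37% of the reads in the 4 replicate 1 libraries and 2.49% to 3.48% in the other 8, so that counts without replicate 1 are given beside the main ones where members were called. MPO, the myeloid granule peroxidase, was at 10100 to 12200 counts per M reads (CPM, with library sizes scaled by TMM), and summed CPM over 7 granulocyte progenitor markers ranged from 11300 to 12600 in DMSO, 10600 to 11100 in DNR, 10800 to 13600 in ML-792 and 11100 to 12200 in ML-792+DNR. ELANE, a defining granule elastase of such cells, was at only 0.324 to 4.03 CPM. The lymphocyte genes CD3E and MS4A1, the erythroid gene HBB and the stromal and epithelial genes COL1A2 and EPCAM had no read. The summed CPM of the lists was at most 0.124 for 4 lymphocyte markers, 0.0863 for 3 erythroid markers and 3.06 for 4 stromal and epithelial markers in any library, the last almost entirely KRT8.

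Replication genes were expressed throughout. Together the 52 genes took 0.846% to 0.894% of the TMM-scaled reads in DMSO, 0.989% to 1.02% in DNR, 0.847% to 0.919% in ML-792 and 0.958% to 1.01% in ML-792+DNR. Their summed level was 8725 ± 244 CPM in DMSO, 9996 ± 181 CPM in DNR, 8801 ± 363 CPM in ML-792 and 9762 ± 279 CPM in ML-792+DNR (SD, n = 3), and every library with DNR lay above every library without it. In bulk RNA, fewer cells of a type and less RNA per cell cannot be told apart.

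Per length of merged annotated exons, PCNA was the most abundant of the 52 in DMSO at 382 ± 40.5 CPM per kb, followed by the thymidylate synthase gene TYMS at 223 ± 11.4 and by the helicase genes MCM3 at 163 ± 9.45 and MCM7 at 116 ± 1.1 CPM per kb. These neighbours in the order did not overlap in their SDs. At the low end stood GINS3 at 6.56 ± 0.589, the primase-associated subunit gene POLA2 at 5.07 ± 0.266 and GINS4 at 4.52 ± 0.371 CPM per kb. The exon length covers all annotated transcripts, so genes with long rare exons appear low on this scale.

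The comparison of DNR with DMSO asks what the drug alone does to these genes within 3 h. More replication genes rose than fell. The licensing factor CDC6, the GINS subunit gene GINS4, the thymidine kinase gene TK1, ORC6 and the helicase subunit gene MCM5 rose most, by 1.49-fold to 1.82-fold. DBF4, GINS1, PRIM2, CHAF1A, GMNN and POLA1 fell. At an adjusted p below 0.05 in edgeR's quasi-likelihood test, 19 of the 52 (36.5%) were higher and 6 (11.5%) lower, where 14.3% of all tested genes were higher and 15.7% lower. The median log2 fold change was 0.14 over the 52 and 0.01 over all tested genes. All DNR libraries lay above all DMSO libraries for 26 of the 52, called or not, and below them for 6. This was so for 23% and 23.6% of all tested genes. None of the 52 met the study's rule of a change of at least 2-fold at the same adjusted p, which 6.98% of all tested genes met in either direction. At that adjusted p, 4 of the 52 changed by at least 1.5-fold, against 1999 of all 13696 tested genes. No called gene changed direction in any of 21 alternative settings, and 12 of the 19 rises and 1 of the 6 falls (DBF4) were called in all of them. With replicates 2 and 3 alone, 12 of the 52 were called higher and 1 lower, against 885 and 1026 of 13758 tested genes. Below, a log2 fold change is given ± its SE, with the adjusted p of this test. The counts by role below are small and stand beside the same 14.3% and 15.7% of all tested genes.

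**Figure D1:**
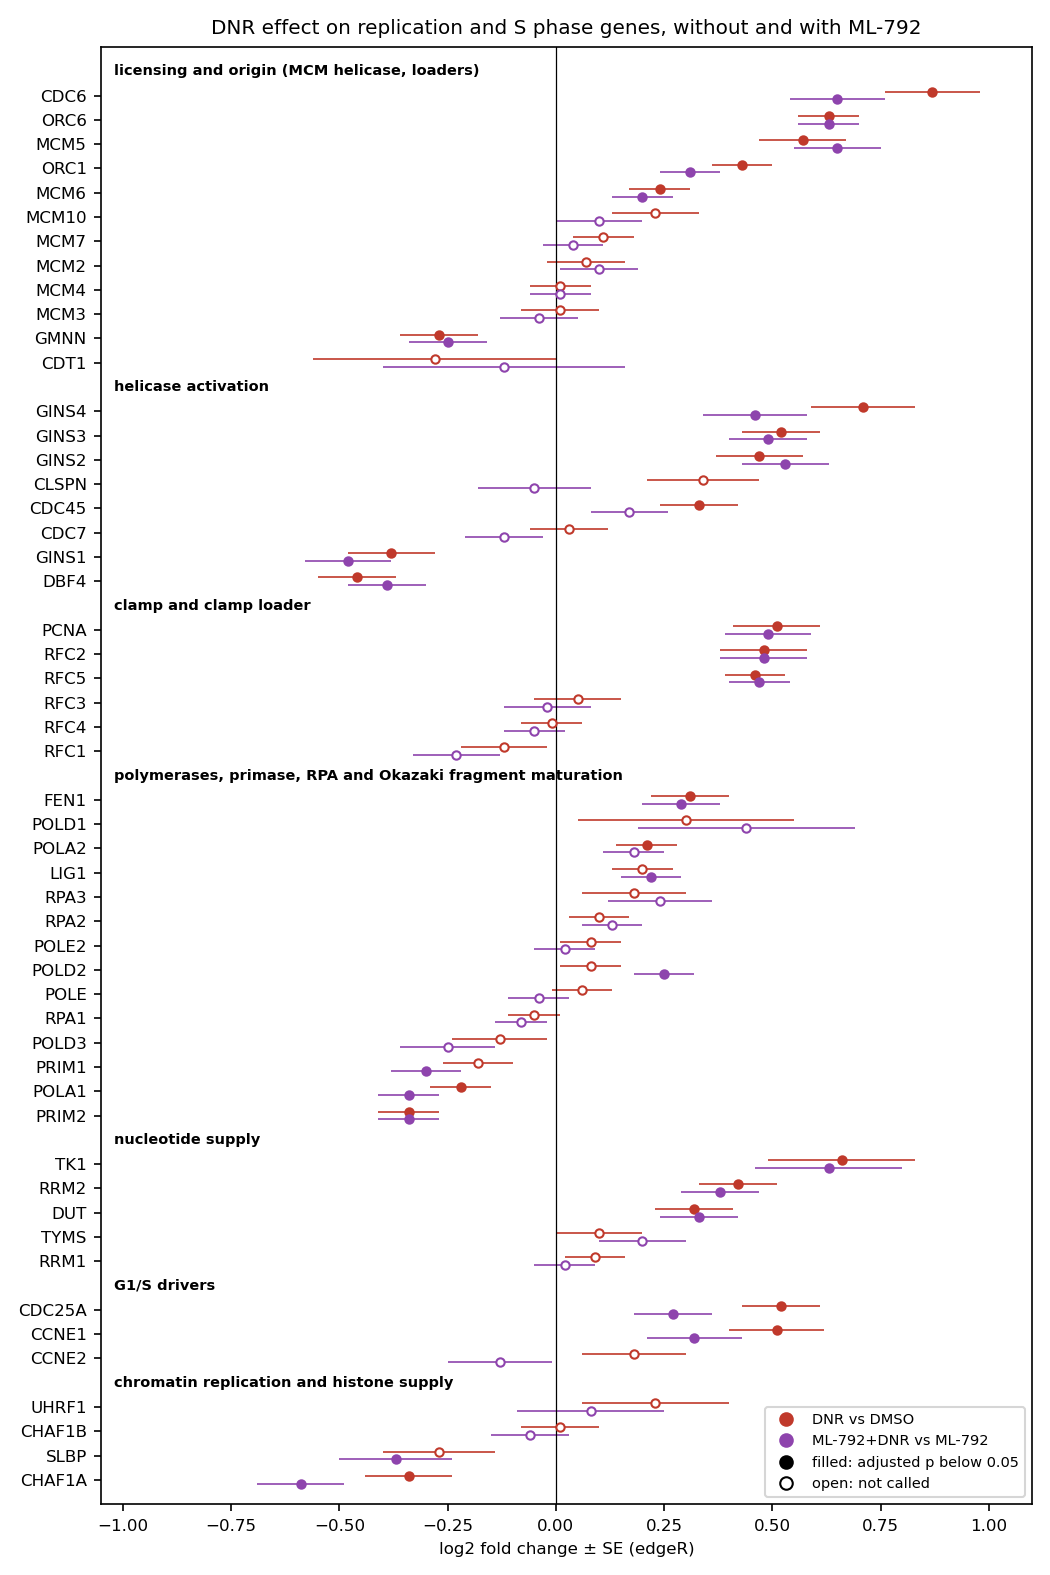
Log2 fold change (± SE) of each of the 52 genes after DNR, in cells without ML-792 (red, DNR vs DMSO) and with ML-792 (purple, ML-792+DNR vs ML-792), by role and ordered within each role by the red value. Filled points passed an adjusted p of 0.05; 19 red points lie to the right and 6 to the left of 0 among those filled, and red and purple points lie close together for most genes.

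Origin licensing held 5 rises, 1 fall and 6 genes that were not called. CDC6, the ATPase that helps load the helicase (chromosome 17, 38444131 to 38460909, GRCh37), was at 160, 173 and 143 CPM in DMSO replicates 1, 2 and 3 and at 269, 317 and 283 CPM in DNR. Every DNR library lay well above every DMSO library, and CDC6 rose 1.82-fold (log2 0.87 ± 0.11, adjusted p = 0.000105). ORC6, a subunit of the origin recognition complex (chromosome 16, 46723555 to 46732306), was at 68.4, 75.6 and 68.4 CPM in DMSO and 117, 104 and 107 CPM in DNR, with no overlap (log2 0.63 ± 0.07, adjusted p = 4.11e-05). ORC1, the ATPase subunit of that complex, rose from 116 ± 6.54 to 157 ± 3.92 CPM (log2 0.43 ± 0.07, adjusted p = 0.000581).

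The MCM helicase subunits did not move alike. MCM5 (chromosome 22, 35796127 to 35821424) was at 325, 387 and 350 CPM in DMSO and 533, 528 and 518 CPM in DNR, so that the groups were far apart and the DNR libraries close to each other (log2 0.57 ± 0.10, adjusted p = 0.00118). MCM6 rose less (log2 0.24 ± 0.07, adjusted p = 0.0186). The MCM6 call was lost without DMSO replicate 1 (adjusted p = 0.0965), without DMSO replicate 3 (0.121) and without DNR replicate 1 (0.0872). MCM3 and MCM7, the 2 of the 52 with the highest mean CPM in DMSO, were not called: MCM3 was at 635, 585 and 568 CPM in DMSO and 560, 650 and 590 CPM in DNR, fully overlapping (log2 0.01 ± 0.09, adjusted p = 0.95), and MCM7 had a log2 fold change of 0.11 ± 0.07 (adjusted p = 0.247). MCM2, MCM4 and MCM10, a helicase activator, were not called either (log2 0.07 ± 0.09, 0.01 ± 0.07 and 0.23 ± 0.10).

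CDT1 and geminin, the loading factor and its inhibitor, were both lower in mean with DNR, but only the second passed the test. GMNN, which encodes geminin (chromosome 6, 24775159 to 24786327), was at 106, 114 and 112 CPM in DMSO and 82.9, 98.3 and 94.6 CPM in DNR (log2 −0.27 ± 0.09, adjusted p = 0.04). The groups did not overlap, but DNR replicate 1 was the lowest library, and the call was lost without it (adjusted p = 0.171), without DMSO replicate 2 (0.0962) or 3 (0.0877), without DNR replicate 3 (0.0744) and without ML-792+DNR replicate 3 (0.0515). CDT1 was at 21, 37 and 31.2 CPM in DMSO and 23.9, 23.7 and 25.6 CPM in DNR (log2 −0.28 ± 0.28, adjusted p = 0.495). Its DMSO libraries were spread more widely than the DNR libraries, and a 95% interval of −0.89 to 0.33 leaves its direction undetermined.

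Among the genes of helicase activation, 4 rose, 2 fell and 2 were not called, and the 4 subunits of the GINS complex, which joins MCM and CDC45 in the active helicase, were split. GINS4 was at 24.6, 22.6 and 26.6 CPM in DMSO and 45.7, 33.3 and 41.8 CPM in DNR (log2 0.71 ± 0.12, adjusted p = 0.000536). GINS3 and GINS2 rose as well (log2 0.52 ± 0.09 and 0.47 ± 0.10, adjusted p = 0.00111 and 0.0028). GINS1 (chromosome 20, 25371644 to 25433336) went the other way, with 119, 111 and 111 CPM in DMSO and 76.8, 97.8 and 88.2 CPM in DNR (log2 −0.38 ± 0.10, adjusted p = 0.0159). Here too DNR replicate 1 was lowest, and without it GINS1 was not called (adjusted p = 0.0754).

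DBF4, the activating subunit of the CDC7 kinase (chromosome 7, 87505531 to 87538868), had the largest fall of the 52. Its level was 105, 92.4 and 101 CPM in DMSO and 73.1, 70.3 and 74 CPM in DNR, all 3 DNR libraries close together and below every DMSO library (log2 −0.46 ± 0.09, adjusted p = 0.00157). CDC7 itself had a log2 fold change of 0.03 ± 0.09 (adjusted p = 0.828). CDC45 rose (log2 0.33 ± 0.09, adjusted p = 0.016), but leaving out DMSO replicate 1 (0.0626), DMSO replicate 3 (0.0953), DNR replicate 1 (0.0677) or DNR replicate 2 (0.0547) ended the call. CLSPN, which encodes the checkpoint mediator claspin, was at 196, 183 and 163 CPM in DMSO and 207, 247 and 233 CPM in DNR and missed the threshold (log2 0.34 ± 0.13, adjusted p = 0.0614). It passed without ML-792+DNR replicate 1 or 2 (0.0454 and 0.0171). It also passed with DESeq2 (0.0477), no count filter (0.0178), a minimum mean of 1 CPM (0.0487), a replicate block (0.0292) and only the groups compared (0.0132).

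PCNA and 2 subunits of its loader rose. PCNA (chromosome 20, 5095599 to 5107272) was at 486, 598 and 525 CPM in DMSO and 766, 776 and 755 CPM in DNR (log2 0.51 ± 0.10, adjusted p = 0.00153). The DNR libraries were nearly equal, and the DMSO libraries lay lower and further apart. Of the replication factor C genes, RFC2 and RFC5 rose (log2 0.48 ± 0.10 and 0.46 ± 0.07, adjusted p = 0.00318 and 0.000412), while RFC1, RFC3 and RFC4 had values of −0.12 ± 0.10, 0.05 ± 0.10 and −0.01 ± 0.07 and were not called.

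**Figure D2:**
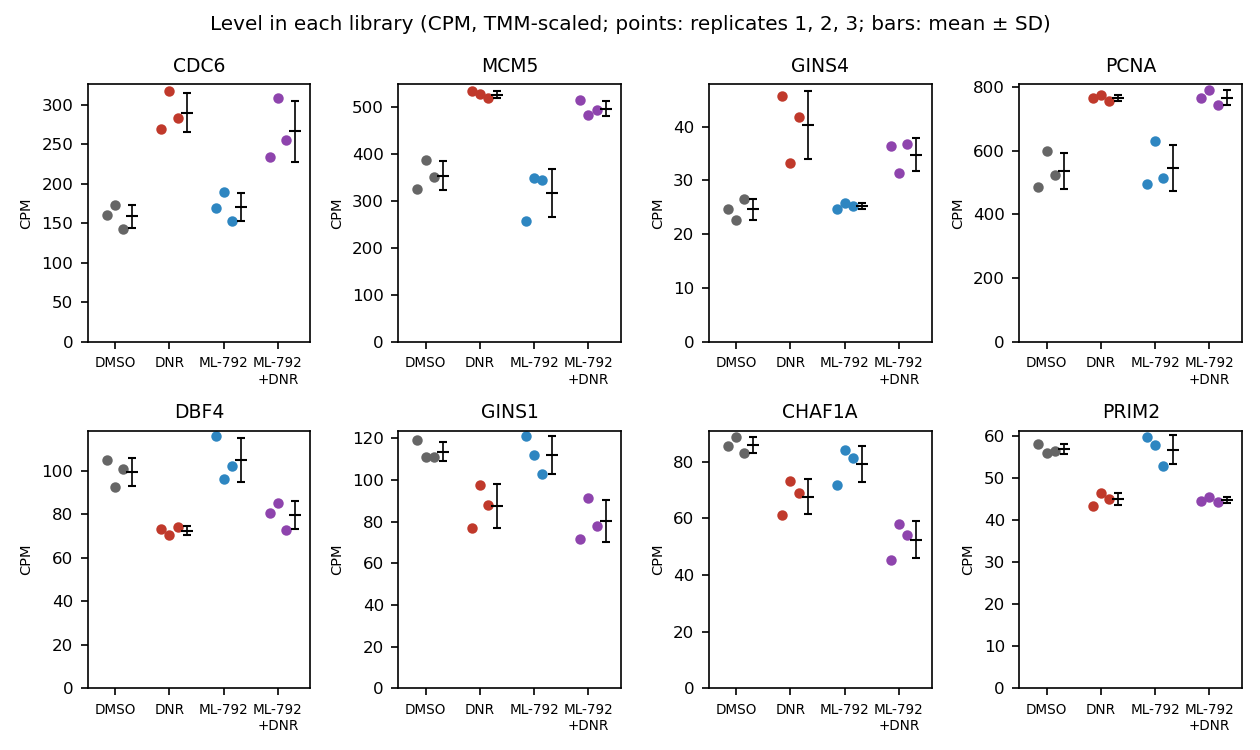
Level of 8 genes in each library (CPM on axes from 0; the 3 points of a group are replicates 1, 2 and 3 from left to right, and the bar beside them is mean ± SD). CDC6, MCM5, GINS4 and PCNA were higher and DBF4, GINS1 and PRIM2 lower in all 6 libraries with DNR than in all 6 without it, and CHAF1A did so but for ML-792 replicate 1, at 71.8 CPM just below DNR replicate 2 at 73 CPM.

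Of the 14 genes of polymerases, primase, RPA and Okazaki fragment enzymes, 2 rose, 2 fell and 10 were not called. These counts are about the shares over all tested genes, of which 14.3% rose and 15.7% fell. PRIM2, the large primase subunit (chromosome 6, 57179603 to 57513376), was at 58.3, 56.1 and 56.6 CPM in DMSO and 43.5, 46.4 and 45.1 CPM in DNR, tight and without overlap (log2 −0.34 ± 0.07, adjusted p = 0.00306). POLA1, the catalytic subunit of polymerase alpha (chromosome X, 24711990 to 25015103), fell (log2 −0.22 ± 0.07, adjusted p = 0.0329), while its partner subunit gene POLA2 rose (log2 0.21 ± 0.07, adjusted p = 0.0369). The POLA1 call was lost without DMSO replicate 1 (0.108), DNR replicate 1 (0.0705) or DNR replicate 3 (0.0824), and that of POLA2 was lost in 12 of 21 alternatives, among them the omission of DMSO replicate 1 (0.135) or 3 (0.186), of any 1 DNR library (0.0566 to 0.125), of ML-792 replicate 2 (0.0524) or 3 (0.0543) and of ML-792+DNR replicate 1 (0.0543).

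FEN1, the flap endonuclease that trims Okazaki fragments, rose from 187, 202 and 188 CPM to 231, 237 and 249 CPM (log2 0.31 ± 0.09, adjusted p = 0.0178). Without DMSO replicate 1, DMSO replicate 3 or DNR replicate 3 the call was lost (0.0851, 0.0761 and 0.0657). LIG1, the ligase that seals the fragments, just missed the threshold (log2 0.20 ± 0.07, adjusted p = 0.0519; 0.0428 without DMSO replicate 2 and 0.0432 without ML-792 replicate 1). RPA1, RPA2 and RPA3 had log2 fold changes of −0.05 ± 0.06, 0.10 ± 0.07 and 0.18 ± 0.12, none of them called. POLD1, the catalytic subunit of polymerase delta, ranged from 50.9 to 90.8 CPM within DMSO alone, and its log2 fold change of 0.30 ± 0.25 (adjusted p = 0.4) was within that spread. The other polymerase and primase genes POLD2, POLD3, POLE, POLE2 and PRIM1 had log2 fold changes from −0.18 to 0.08 and were not called.

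Of the 5 genes of nucleotide supply, 3 rose. TK1, thymidine kinase of the salvage route (chromosome 17, 76170172 to 76183314), was at 64, 76.4 and 90.3 CPM in DMSO and 125, 102 and 139 CPM in DNR, with a wide spread in both groups but no overlap (log2 0.66 ± 0.17, adjusted p = 0.0089). Without DMSO replicate 1 its adjusted p was 0.0526. RRM2, the small subunit of ribonucleotide reductase, was at 410, 390 and 350 CPM in DMSO and 479, 550 and 508 CPM in DNR (log2 0.42 ± 0.09, adjusted p = 0.00411), whereas the large subunit gene RRM1 had a value of 0.09 ± 0.07 (adjusted p = 0.376). DUT, the dUTPase that keeps uracil out of DNA, rose (log2 0.32 ± 0.09, adjusted p = 0.0145), a call that was lost without DMSO replicate 1 (0.0718), DMSO replicate 3 (0.0561) or DNR replicate 1 (0.0913). TYMS was not called (log2 0.10 ± 0.10, adjusted p = 0.492).

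Both CDC25A, the phosphatase that activates cyclin-dependent kinases, and CCNE1, which encodes cyclin E1, rose. CDC25A (chromosome 3, 48198636 to 48229907) was at 139, 143 and 128 CPM in DMSO and 182, 213 and 192 CPM in DNR (log2 0.52 ± 0.09, adjusted p = 0.00124). CCNE1 (chromosome 19, 30302898 to 30315219) was at 32.2, 34.7 and 29 CPM in DMSO and 46.4, 46.7 and 43.4 CPM in DNR (log2 0.51 ± 0.11, adjusted p = 0.00459). Neither gene had overlapping groups, and CCNE2, for cyclin E2, was not called (log2 0.18 ± 0.12, adjusted p = 0.283).

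No gene of chromatin replication and histone supply rose. CHAF1A, the large subunit of the histone chaperone CAF-1 (chromosome 19, 4402637 to 4445015), was at 85.5, 88.6 and 83.1 CPM in DMSO and 61.1, 73 and 68.8 CPM in DNR (log2 −0.34 ± 0.10, adjusted p = 0.0195). Its groups were apart, though the call was lost without DNR replicate 1 (0.0986), DNR replicate 3 (0.0515) or DMSO replicate 2 (0.0539). The partner subunit gene CHAF1B had a value of 0.01 ± 0.09, and UHRF1, which recruits the maintenance DNA methyltransferase, one of 0.23 ± 0.17, neither of them called. SLBP, which binds the stem-loop of histone mRNA, was at 169, 161 and 154 CPM in DMSO and 118, 162 and 122 CPM in DNR (log2 −0.27 ± 0.13, adjusted p = 0.138), and without DNR replicate 2, the only DNR library within the DMSO range, it passed the threshold (0.0179).

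Ratios of the counts of a pair of subunits within each library do not depend on library scaling, and they are given as a description for pairs chosen after their values were seen. The log2 ratio of GINS2 to GINS1 was −2.04 to −1.64 in the 6 libraries without DNR and −1.16 to −0.74 in the 6 with it, a mean difference of 0.93. For POLA2 over POLA1 the ranges were −1.34 to −1.10 and −0.84 to −0.60 (difference 0.47), for MCM5 over MCM2 they were 0.24 to 0.52 and 0.78 to 0.90 (0.52), and for RFC5 over RFC4 they were 0.05 to 0.23 and 0.54 to 0.78 (0.50). In these 4 pairs, and in CCNE1 over CCNE2, no library with DNR overlapped one without it. How often pairs of other genes separate in this way was not computed. CDC7 over DBF4, CHAF1B over CHAF1A, CDC6 over CDT1 and PRIM1 over PRIM2 had overlapping ranges.

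**Figure D3:**
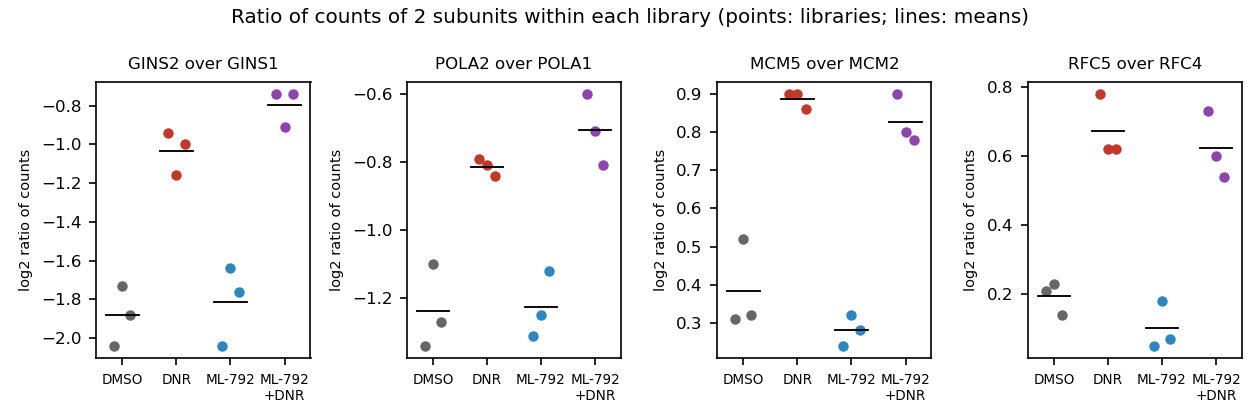
Log2 ratio of the counts of 2 subunits of the same complex in each of the 12 libraries, by group (points are libraries, lines are group means, axes do not start at 0). The 6 libraries with DNR lay above the 6 without it in all 4 panels, by 0.93 on average for GINS2 over GINS1 and by 0.47 for POLA2 over POLA1. The pairs were chosen after their values were seen.

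The promoters of some of these genes are shown because partner subunits with opposite changes each carried 1 of the E2F letter runs searched for, though not the same run. The sequences are from RefSeq on GRCh38.p14, a build other than that of the counts, and run from 150 bases before the annotated start site to 30 bases from it, 5′ to 3′ on the gene's strand. Capitals mark the letters searched for as an E2F element, TTTCCCGC, TTTCGCGC or TTTGGCGC on either strand. CDC6 (chr17:40287729-40287908, plus strand) and PCNA (chr20:5126593-5126772, minus strand) rose, GINS2 (chr16:85688925-85689104, minus strand) and POLA2 (chr11:65261812-65261991, plus strand) rose, and GINS1 (chr20:25407523-25407702, plus strand) and POLA1 (chrX:24693768-24693947, plus strand) fell.
CDC6: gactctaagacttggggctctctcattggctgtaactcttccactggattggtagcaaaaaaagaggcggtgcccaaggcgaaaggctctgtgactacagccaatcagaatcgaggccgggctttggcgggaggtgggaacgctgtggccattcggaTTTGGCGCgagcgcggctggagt
PCNA: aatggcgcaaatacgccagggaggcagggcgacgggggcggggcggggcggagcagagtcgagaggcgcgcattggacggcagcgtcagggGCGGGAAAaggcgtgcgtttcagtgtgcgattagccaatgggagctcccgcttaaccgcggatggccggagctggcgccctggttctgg
GINS2: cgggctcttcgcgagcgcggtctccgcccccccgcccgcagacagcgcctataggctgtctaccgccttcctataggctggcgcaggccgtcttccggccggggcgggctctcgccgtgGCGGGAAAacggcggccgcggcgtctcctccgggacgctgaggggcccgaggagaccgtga
GINS1: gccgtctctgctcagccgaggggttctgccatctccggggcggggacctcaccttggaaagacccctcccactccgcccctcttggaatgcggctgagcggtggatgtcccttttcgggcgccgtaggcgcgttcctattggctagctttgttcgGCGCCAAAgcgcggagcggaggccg
POLA2: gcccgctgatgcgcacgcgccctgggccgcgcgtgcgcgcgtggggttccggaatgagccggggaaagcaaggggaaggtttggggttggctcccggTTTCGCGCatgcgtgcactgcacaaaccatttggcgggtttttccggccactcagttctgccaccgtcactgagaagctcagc
POLA1: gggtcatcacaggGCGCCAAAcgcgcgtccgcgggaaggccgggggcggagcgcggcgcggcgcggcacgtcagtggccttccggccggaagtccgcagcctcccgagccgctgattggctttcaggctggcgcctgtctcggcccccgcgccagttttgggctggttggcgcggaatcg
The PCNA, GINS2 and POLA2 elements begin 59, 31 and 53 bases before the start site, that of POLA1 begins 137 bases before it, and those of CDC6 and GINS1 lie just after it.

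Of the 52 genes, 45 had a promoter of 300 bases (250 before the start site and 50 from it) in the RefSeq table; MCM4, MCM5, GINS4, POLD3, RPA2, RPA3 and CCNE2 had none there. E2F letters were in 20 of the 45 (44.4%), against 4.62% of the 9585 promoters of tested genes and 2.79% of all 27305 promoters. By response, 7 of 17 promoters of genes that rose held them, 2 of 6 of genes that fell and 11 of 22 of genes not called. Over all tested genes, 20.5% of the 443 with E2F letters were higher after DNR and 16.7% lower, against 14.9% and 17.4% of the 9142 without. The letters CCAAT on either strand were in 53.3% of the 45 and 36.5% of tested genes' promoters, and TTTGAA on either strand, the letters of the cell cycle homology region of late cell cycle genes, in 4.44% and 10.1%. A match of letters is a description and not a binding site, and overlapping matches on the 2 strands count separately.

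The span of a gene from first to last annotated base was set beside its change, as a description. The 19 genes that rose after DNR had a median span of 19.5 kb (4.33 to 111 kb), the 6 that fell one of 52 kb (11.2 to 334 kb) and the 27 others one of 33.6 kb. Across the 52 genes, log2 fold change and log10 span had r = −0.30 and Spearman's rho = −0.27, and across the 12332 tested genes with a span r = −0.14 and rho = −0.21; all points come from the same libraries. Of the 13 genes over 50 kb, 2 rose and 3 fell, and among all tested genes over 50 kb 9.92% rose and 21.7% fell. Of the 34 genes of 10 kb to 50 kb, 15 rose and 3 fell, where 17.5% and 15.2% of all tested genes of that span did. POLA1 and PRIM2, the longest of the 52 at 303 and 334 kb, both fell, while GINS3 at 111 kb rose. The other rise over 50 kb was that of RRM2, at 91 kb. Spans cover all annotated transcripts, so genes with long rare transcripts appear long on this scale. Whether this holds for GINS3 or RRM2 was not tested.

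**Figure D4:**
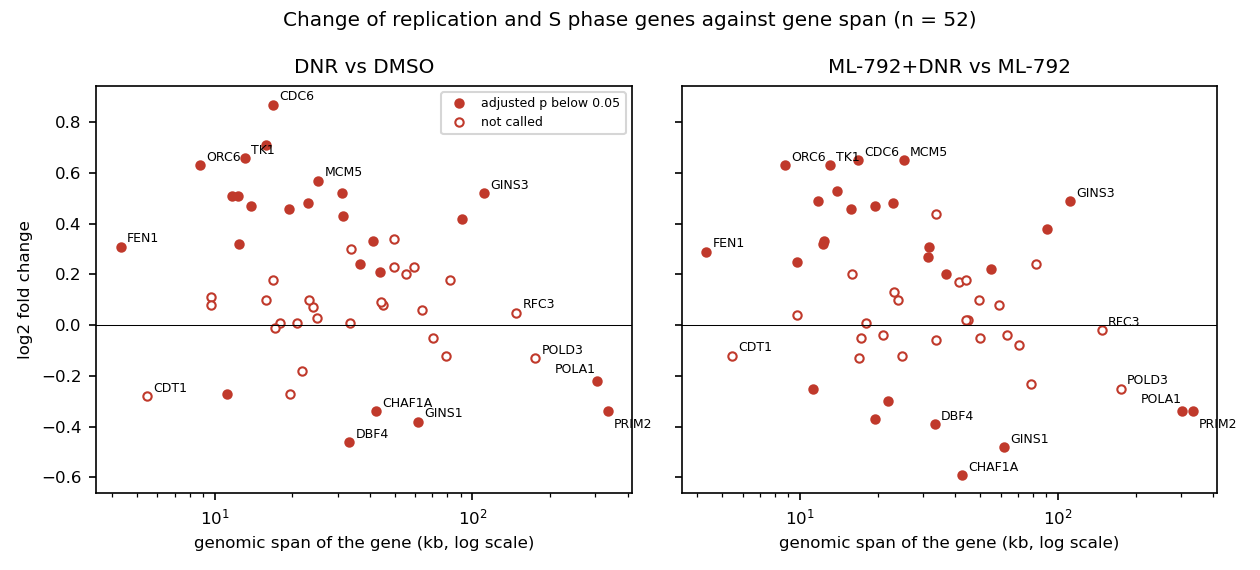
Log2 fold change after DNR against genomic span (kb, log scale) for the 52 genes, without ML-792 (left) and with ML-792 (right), filled where adjusted p was below 0.05. The 2 longest genes, POLA1 and PRIM2, fell in both panels, and CDC6 and MCM5, of 16.8 and 25.3 kb, rose in both.

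Cells given ML-792 alone show whether blocking SUMOylation for 3 h moves these genes. None of the 52 was called in either direction by edgeR's quasi-likelihood test, by DESeq2 or by any other alternative, where 0.183% of all tested genes were higher and 0.0584% lower (0.0803% with the 2-fold rule). At an unadjusted p below 0.05 there was 1 gene of the 52, CCNE2, and there were 697 of all 13696 tested genes. CCNE2 was at 38.6, 35.9 and 31.3 CPM in DMSO and 46.8, 48.3 and 36.5 CPM in ML-792, with overlapping groups (log2 0.31 ± 0.12, edgeR adjusted p = 0.764). The next lowest p-values belonged to DUT (log2 0.17 ± 0.09) and CCNE1 (0.22 ± 0.11). MCM3 and MCM7 were at 595 and 609 CPM in mean. The median over the 52 was 0.00, and the 95% interval of the log2 fold change lay within a 1.5-fold change for 51 of the 52, the exception being CDT1.

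**Figure D5:**
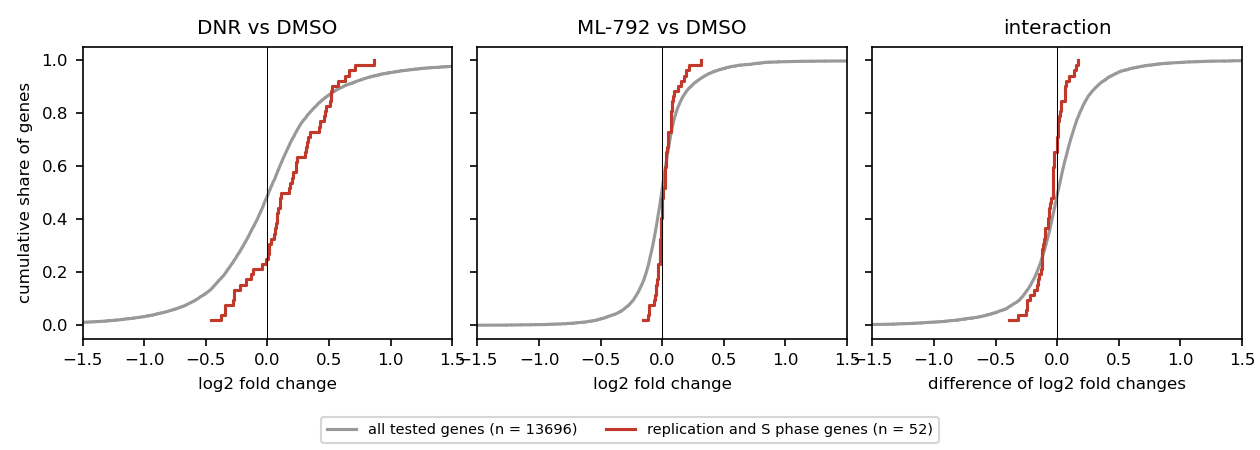
Cumulative share of genes by log2 fold change for the 52 genes (red) and all 13696 tested genes (grey) in DNR vs DMSO, ML-792 vs DMSO and the interaction (the DNR effect with ML-792 minus that without it). The red curve lies to the right of the grey one for most of its course in DNR vs DMSO (medians 0.14 and 0.01) and is steep around 0 in ML-792 vs DMSO, between −0.16 and 0.31.

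DNR together with ML-792 raised CDC6, TK1, GINS2, ORC6 and GINS3 and lowered CHAF1A relative to DMSO. In this comparison, which shares its control libraries with that of DNR alone, 17 of the 52 (32.7%) were higher and 5 (9.62%) lower, where 17% of all tested genes were higher and 18.4% lower, and none met the 2-fold rule (6.48% of all tested genes). The median was 0.15, against 0.02 over all tested genes. CDC6 had 234, 309 and 256 CPM in ML-792+DNR (log2 0.75 ± 0.11, adjusted p = 0.000341), CHAF1A 45.3, 57.9 and 54 CPM (log2 −0.71 ± 0.10, adjusted p = 0.000193) and TK1 115, 102 and 131 CPM (log2 0.59 ± 0.17, adjusted p = 0.014). CDC6 and TK1 were above and CHAF1A below all DMSO libraries, as were 24.2% and 24.5% of all tested genes. GINS2, ORC6 and GINS3 rose by log2 0.58 ± 0.10, 0.56 ± 0.07 and 0.56 ± 0.09. TK1 was not called without DMSO replicate 1 (0.0756) or ML-792+DNR replicate 3 (0.0604). In these 2 groups libraries with the same replicate number had deviations correlated with r of 0.13 to 0.442, the lowest of these weak. With a replicate block 24 of the 52 were higher and 8 lower, against 3361 and 3347 of all 13696 tested genes. With replicates 2 and 3 alone 13 were higher and 4 lower, against 881 and 1251 of 13758 tested genes.

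Against ML-792 alone, DNR in the presence of ML-792 gave 19 rises (36.5%) and 8 falls (15.4%) among the 52, where 16.3% of all tested genes were higher and 17.4% lower. None met the 2-fold rule (6.34% of all tested genes), and the median was 0.10, against 0.02 over all tested genes. MCM5 was at 258, 349 and 344 CPM in ML-792 and 514, 482 and 493 CPM in ML-792+DNR (log2 0.65 ± 0.10, adjusted p = 0.000553), and CDC6 at 169, 189 and 153 and at 234, 309 and 256 CPM (log2 0.65 ± 0.11, adjusted p = 0.000977). CHAF1A had the largest fall, from 71.8, 83.9 and 81.2 CPM to 45.3, 57.9 and 54 CPM (log2 −0.59 ± 0.10, adjusted p = 0.000767). None of these 3 genes had overlapping groups, where 21.3% of all tested genes lay higher and 21.5% lower without overlap. ORC6 (log2 0.63 ± 0.07), TK1 (0.63 ± 0.17) and GINS2 (0.53 ± 0.10) followed. With replicates 2 and 3 alone 7 were called higher and 1, CHAF1A, lower, against 759 and 996 of 13758 tested genes. These 8 calls were the ones made in all 21 alternatives. With a replicate block, 23 were higher and 9 lower, against 3203 and 3187 of all 13696 tested genes.

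The DNR effect without and with ML-792 comes from separate libraries, although same-numbered libraries deviated together across genes to varying degrees (r of 0.0559 to 0.711 over the 18 same-numbered pairs), and whether a number marks 1 experiment is not stated. Of the 19 rises in each, 17 were shared (89.5% of each list). The shares of shared rises and falls over all tested genes were not computed, so those of the 52 have no background here. CDC45 and POLA2 rose only in DNR vs DMSO, and LIG1 and POLD2 (polymerase delta) only in ML-792+DNR vs ML-792, and for none of these 4 genes was the difference between the effects called. With a replicate block, used here because same-numbered libraries of these groups had r of 0.154 to 0.492, CDC45 (adjusted p = 0.0135) and POLA2 (0.0209) were also called with ML-792. POLD2 was not called there without ML-792 replicate 1 (0.0625) or ML-792+DNR replicate 1 (0.0743), nor LIG1 without DNR replicate 1 or 3 (0.0533 each), ML-792 replicate 1 (0.122) or 2 (0.0665), or ML-792+DNR replicate 1 (0.0786) or 3 (0.101). All 6 falls of DNR vs DMSO (100%) were among the 8 falls with ML-792 (75% of them), which also held PRIM1, the small primase subunit (log2 −0.30 ± 0.08, adjusted p = 0.0104), and SLBP (log2 −0.37 ± 0.13, adjusted p = 0.0431). The SLBP call was lost without ML-792 replicate 1 (0.126) or 2 (0.104), without ML-792+DNR replicate 1 (0.131) or 3 (0.169), and narrowly without any 1 DMSO library (0.0517 to 0.0528). Of the shared calls, those of CCNE1, MCM6, CDC25A and GMNN were weak with ML-792, where leaving out 1 library gave adjusted p-values of up to 0.162, 0.148, 0.171 and 0.179, and each was lost in 12 or 13 of 21 alternatives. No gene was called in opposite directions. Over the 52 genes the log2 fold changes correlated with r = 0.93 and rho = 0.92, against 0.86 and 0.82 over all tested genes. The sign was the same for 45 of the 52 and for 11473 of all 13696 tested genes.

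The direct comparison of ML-792+DNR with DNR asks whether blocking SUMOylation changed the level reached under DNR. None of the 52 was called by edgeR's quasi-likelihood test, where 0.256% of all tested genes were higher and 0.489% lower (0.197% with the 2-fold rule). At an unadjusted p below 0.05 there were 5 of the 52 and 1768 of all 13696 tested genes. CHAF1A had the lowest p of the 52, with 61.1, 73 and 68.8 CPM in DNR and 45.3, 57.9 and 54 CPM in ML-792+DNR, all lower (log2 −0.37 ± 0.10, edgeR adjusted p = 0.125). Of all tested genes 9.86% lay lower without overlap. Same-numbered libraries of these groups deviated together, and with a replicate block CHAF1A was called lower (adjusted p = 0.0121), as it was by DESeq2 (0.0312). CLSPN was at 207, 247 and 233 CPM in DNR and 142, 211 and 159 CPM in ML-792+DNR (log2 −0.43 ± 0.13, adjusted p = 0.176). Its groups overlapped through ML-792+DNR replicate 2, without which the gene was called lower (0.0359). CLSPN was also called lower with no count filter (0.0216). ORC1, POLE, the catalytic subunit of polymerase epsilon, and POLD2 had values of −0.23 ± 0.07, −0.21 ± 0.07 and 0.16 ± 0.07, and 49 of the 52 had a 95% interval within a 1.5-fold change.

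The interaction tests whether the DNR effect itself differed between cells with and without ML-792. No gene of the 52 and no gene of all tested was called (0% higher, 0% lower and 0% with the 2-fold rule) by edgeR's quasi-likelihood test. At an unadjusted p below 0.05 there were 0 of the 52 and 493 of all tested genes, and DESeq2 called 0 of the 52 and 3 higher and 14 lower of all. The lowest p-values among the 52 were those of CLSPN (difference of log2 fold changes −0.39 ± 0.18, edgeR adjusted p = 0.999), CDC25A (−0.25 ± 0.13), CCNE2 (−0.32 ± 0.17), CHAF1A (−0.25 ± 0.14), POLD2 (0.17 ± 0.10) and GINS4 (−0.25 ± 0.16). The median difference was −0.04, and for 46 of the 52 the 95% interval lay within a 1.5-fold difference, while for CDT1, GINS4, CLSPN, POLD1, CCNE2 and UHRF1 it reached beyond it.

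Other genes of the same pathways gave a mixed picture after DNR. Of 38 further genes of the replication machinery 6 were higher (15.8%) and 5 lower (13.2%), near the shares of 14.3% and 15.7% over all tested genes, with a median of −0.01, among them the histone chaperone gene ASF1B (log2 1.52 ± 0.23, adjusted p = 0.000338), ORC5 of the origin recognition complex (−0.83 ± 0.10) and DTL (0.73 ± 0.08), whose product directs the degradation of CDT1. Of 17 further tested genes of nucleotide supply 2 were higher (11.8%) and 4 lower (23.5%), with the mitochondrial thymidine kinase gene TK2 at −0.48 ± 0.17 and CAD of pyrimidine synthesis at −0.32 ± 0.08. Among 35 tested regulators of the G1/S transition 8 were higher (22.9%) and 6 lower (17.1%). The cyclin-dependent kinase inhibitor gene CDKN1A rose (2.74 ± 0.43) from a scarce 0.0973 to 0.649 CPM, and the transcription factor genes MYC and MYB fell (−2.41 ± 0.28 and −1.20 ± 0.15). Of the 8 E2F genes in this list, named after their values were seen, E2F1, E2F2, E2F3 and E2F7 rose (log2 1.19 ± 0.09, 0.98 ± 0.11, 0.67 ± 0.07 and 0.72 ± 0.11), E2F5 fell (−0.65 ± 0.14), and E2F4, E2F6 and E2F8 were not called. With ML-792 present, DNR raised 7 (18.4%) and lowered 8 (21.1%) of the further replication genes, raised 3 (17.6%) and lowered 2 (11.8%) of the nucleotide genes and raised 10 (28.6%) and lowered 8 (22.9%) of the regulators, where 16.3% and 17.4% of all tested genes were higher and lower. ML-792 alone raised 1 gene of these lists, CDK6, the kinase partner of D-type cyclins (log2 0.59 ± 0.09, adjusted p = 0.0146).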

How the data were processed

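Single-end reads of stranded poly(A) libraries were aligned by the authors to hg19 (GRCh37) using TopHat2 2.1.1 (Bowtie2 2.3.5.1). Their raw counts per gene, made with HTSeq-count 0.11.1 and deposited as 1 table, underlie all values here. Cufflinks 2.2.1, Picard and DESeq2 also stand in the submitters' processing notes. Whether counting used strand is not stated in the sources used here. On the annotation, 2 of the 52 genes shared over 10% of their exon bases with a coding gene on the other strand (TYMS 39.9%, CCNE2 37%). POLA2 (16.8%) and PRIM1 (15.1%) did so with a coding gene on the same strand. Overlap with long noncoding RNA genes on either strand exceeded 10% for MCM2 (23.6%), GINS4 (23.4%), PRIM2 (16.9%), DUT (14.5%) and GINS3 (10.9%). Pseudogenes that carry their name existed for 13 genes (among them PCNA, DUT, RRM2, DBF4 and PRIM2). The counts of all these genes are therefore uncertain. The deposited normalized values and the authors' table of fold changes and p-values were not used.

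The 5 counter lines were left out (32.6% to 34.7% of records). Libraries of a group were not copies of each other (chi-square per gene 16.9 to 84.4). The quasi-likelihood test of edgeR 4.0.16 (R 4.3.3, TMM factors 0.954 to 1.04, filterByExpr with minimum count 10 and minimum total 15) took all 12 libraries and a term for the group, tested on simulated data, and p-values were adjusted by Benjamini-Hochberg over 13696 genes. Interval bounds use the total degrees of freedom of the quasi-likelihood fit at 95%. No fold minimum was set, and the study's minimum of 2 is counted beside it. Exact permutation of 3 libraries against 3 cannot reach 0.05 and was not used.

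Members, roles and lists were chosen with earlier results of these data known. Named genes were, per comparison, the 6 called members with the largest change, the 2 most abundant and, for the interaction, the 6 with the smallest p, at least 1 per role and up to 3 called genes per further list; other members were named to account for all roles. For the further lists, 1 gene that the rule names is not reported here. Replicate numbers were checked as pairing by correlating deviations from group means: same-numbered libraries had r of 0.0559 to 0.711 and others −0.6 to 0.159. Each pair exceeded 0.1 except in DNR vs DMSO (lowest 0.0841) and the interaction. Alternatives were median-of-ratios factors, library size only, DESeq2 1.42.0, limma voom (limma 3.58.1), a replicate block, a minimum mean of 1 CPM in place of the count filter or no filter, only the groups compared, each library left out, replicates 2 and 3 only, and folds of at least 1.5 and 2. Gene positions are from GENCODE on GRCh37, which gave a span for 90% of tested genes.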

Additional observations from a re-analysis of the deposited data

How the results depend on the processing

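Direction held for every member called in any comparison under all 21 alternatives (20 for the interaction, where none was called). A minimum of 1.5-fold left 4 called members in DNR vs DMSO, 3 in ML-792+DNR vs DMSO and 5 in ML-792+DNR vs ML-792. Over all 13696 tested genes it left 1999, 2205 and 2072. A minimum of 2-fold left 0 members in each. With library size only, the median of the members in ML-792+DNR vs DMSO was 0.10 instead of 0.15. DESeq2 (CHAF1A), no count filter (CLSPN) and the replicate block (CHAF1A) each called 1 member lower in ML-792+DNR vs DNR, where the main test called 0. With the replicate block 8 members were lower in ML-792+DNR vs DMSO (main 5), and in DNR vs DMSO, where the replicate numbers did not pair the libraries by the rule used, the replicate block gave 22 higher and 8 lower. With replicates 2 and 3 only, 12 were higher and 1 lower in DNR vs DMSO, and 7 higher and 1 lower in ML-792+DNR vs ML-792, with 2 libraries a group in place of 3.

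With 1 library left out at a time, members called higher and lower ranged from 13 to 20 and 2 to 7 in DNR vs DMSO (2 without DNR replicate 1, 3 without DNR replicate 3), from 13 to 18 and 5 to 6 in ML-792+DNR vs DMSO, and from 13 to 17 and 6 to 10 in ML-792+DNR vs ML-792. In ML-792+DNR vs DNR 0 to 1 were lower (CLSPN, without ML-792+DNR replicate 2). The medians ranged from 0.09 to 0.14 in DNR vs DMSO, −0.01 to 0.04 in ML-792 vs DMSO, 0.09 to 0.18 in ML-792+DNR vs DMSO and 0.07 to 0.15 in ML-792+DNR vs ML-792. Over all alternatives, all tested genes called higher and lower ranged from 885 to 2778 and 1026 to 2989 in DNR vs DMSO, 881 to 3361 and 1251 to 3347 in ML-792+DNR vs DMSO, 759 to 3203 and 996 to 3187 in ML-792+DNR vs ML-792, 3 to 104 and 1 to 50 in ML-792 vs DMSO, and 1 to 226 and 1 to 314 in ML-792+DNR vs DNR, lowest with replicates 2 and 3 only and highest with the replicate block. The cause of these differences was not tested.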
